A study of Homo sapiens with 24 samples.

Results

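MUTYH-deficient HAP1 cells were compared with MUTYH-proficient HAP1 cells in OG-seq, a pull-down of DNA fragments that carry 8-oxoguanine (OG), the commonest oxidized form of guanine. The 12 columns of the table of 1 kb bins, made from the 24 sequenced samples (pull-down and input), were split by genotype. The 6 columns of MUTYH KO and DKO, the double knockout of MUTYH and OGG1, formed the deficient group. The 6 columns of WT and OGG1 KO formed the proficient group. OGG1 status was kept as a block, so that each knockout of MUTYH was set against cells with the same OGG1 status. HAP1 is a near-haploid human line of leukaemic origin, and all genotypes were grown in the same medium. The knockouts were CRISPR-Cas9 clones, and 2 clones per genotype were used. Both DKO clones were derived from a clone of OGG1 KO, so DKO and OGG1 KO share a lineage that MUTYH KO does not.

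MUTYH and OGG1 act on the same lesion from opposite strands. OGG1 removes OG paired with cytosine. MUTYH removes the adenine that replication places opposite OG, after which the gap is filled and OGG1 has another chance to act. MUTYH thus does not excise OG itself, and inherited loss of MUTYH is known for G-to-T mutations in colorectal polyps. The deposited value of a bin is the number of OG reads minus scaled input reads, and here each column was divided by its mean over all 2835235 bins. A scaled value of 1 is therefore the genome mean of a column, and differences are given as deficient minus proficient in these units.

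The total number of OG reads, solved from the values, ranged from 59604818 to 113916768 per column. It was 109745695, 75488317 and 84785454 in MUTYH KO and 95004077, 113916768 and 109208593 in DKO. The proficient columns held 59604818, 64849553 and 86156722 in WT and 100339340, 88186652 and 110877333 in OGG1 KO. The WT columns were the shallowest on average, and the groups overlapped (exact permutation p = 0.13 within OGG1 status, two-sided). The mean value per bin before scaling was 8.34, 9.27 and 9.91 in DKO and 9.64, 7.80 and 8.26 in MUTYH KO. In WT it was 7.04, 7.38 and 8.34 and in OGG1 KO 9.12, 8.84 and 9.71. The difference of 0.463 reads per bin did not pass the test (exact permutation p = 0.335). This mean also depends on the depth of a library, so the test cannot decide whether the total amount of OG differed. The values do not show the edits themselves. The gene body of MUTYH had scaled values from 1.01 to 2.62 in deficient and from 0.518 to 2.26 in proficient columns, at a resolution of 1 kb.

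The columns carry a genotype and a number but no clone, and the input reads show how they group. Within MUTYH KO, columns 1 and 2 shared 16 windows of 100 kb in which input departed the same way by more than 0.5 on the log2 scale from the median of all columns, and neither shared any with column 3. In OGG1 KO, columns 1 and 2 shared 9 such windows and none with column 3. In DKO they shared 72, and each shared 9 with column 3. In WT, columns 1 and 2 shared 4, columns 1 and 3 shared 3 and columns 2 and 3 shared 4. The labels name 2 clones for the 3 samples of a genotype but do not tie a clone to a column, so p values over 6 against 6 columns may count libraries of 1 clone as separate.

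At single loci, almost nothing differed. Of 28128 windows of 100 kb tested with limma, 1 was lower without MUTYH and 0 were higher at a Benjamini-Hochberg adjusted p under 0.05, a background of 0.00356 % in the lower direction. At an unadjusted p of at most 0.01, 121 windows (0.43 %) were lower and 124 (0.441 %) higher, and at p under 0.05 there were 586 lower and 732 higher. Of 2805354 bins of 1 kb, 0 passed adjustment, with 13952 (0.497 %) lower and 12301 (0.438 %) higher at p of at most 0.01, and 70761 lower and 67537 higher at p under 0.05. At p of at most 0.01, lower and higher bins were thus nearly as many. Of 17294 protein-coding gene bodies, 0 passed adjustment. At p of at most 0.01, 153 (0.885 %) were lower and 59 (0.341 %) were higher, and at p under 0.05 there were 676 lower and 299 higher. In simulated columns in which 200 windows were changed by 0.3, 26 % of them were called after adjustment and 75 % at p of at most 0.01. In gene bodies it was 1 % and 28 %, and in 1 kb bins changed by 2 it was 3 % and 54 %. After adjustment, 4 unchanged windows were called too. The simulated noise was independent between columns, with 1 typical variance for features of similar mean. Real features varied more in their spread and columns may share a clone, so these shares do not measure the sensitivity in these data.

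The called window holds the array of 5S ribosomal RNA genes, which encode the small RNA of the large ribosomal subunit. It lies on chromosome 1 from 228600001 to 228700000 (GRCh38) and overlaps no protein-coding gene. It has 53.2 % GC and 44.2 CpGs per kb. GENCODE places 17 genes there, all on the minus strand and spaced by a median of 2241 bp, and 16 of them, RNA5S1 included, are the same over their 119 bases. Reads from these copies cannot be assigned to 1 of them.

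In this window the scaled value was 2.88, 1.91 and 3.37 in MUTYH KO and 0.801, 2.61 and 2.37 in DKO. It was 5.0, 5.77 and 4.32 in WT and 3.62, 3.0 and 4.32 in OGG1 KO. The MUTYH KO columns were all below the WT columns and the DKO columns all below the OGG1 KO columns, while MUTYH KO replicate 3 lay above OGG1 KO replicate 2. The difference was -2.01 ± 0.368 (SE, limma adjusted p = 0.0177). The input moved with it. Relative to the column mean, input reads in the window were 2.32, 2.60 and 2.54 in WT, 1.75, 1.52 and 1.31 in OGG1 KO, 1.37, 1.23 and 1.24 in MUTYH KO and 1.51, 1.21 and 1.41 in DKO. On the log2 ratio of OG to input reads, the difference was -0.17 ± 0.125 (SE) with a limma adjusted p of 1.00, so the call was lost. It was also lost without any 1 of 5 columns, namely WT replicate 2, OGG1 KO replicates 1 and 3, MUTYH KO replicate 2 and DKO replicate 3, with adjusted p from 0.0875 to 0.582.

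Within the window the difference sat in the array. Over the 19 bins that hold a 5S gene, the value was 4.93, 3.36 and 6.45 in MUTYH KO and 1.43, 4.71 and 4.59 in DKO, against 11.5, 12.7 and 9.12 in WT and 7.18, 6.18 and 8.75 in OGG1 KO. The input of these bins was 3.95, 4.72 and 4.15 times the column mean in WT, from 1.71 to 2.64 in OGG1 KO and from 1.51 to 2.17 in the deficient columns. The 63 bins outside the span of the genes had a mean of 1.03 ± 0.229 (SD, n = 6) in deficient and 1.39 ± 0.179 in proficient columns. These values were chosen by the call and carry no test of their own. The number of 5S copies in each line was not measured, and its part in the result was not tested.

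Of the other windows with the smallest p, 4 in the lower direction had no adjusted p under 0.05. The named windows of both directions were picked by their p, so groups that do not overlap carry no test of their own. The window from 27100001 to 27200000 on chromosome 7 holds the HOXA genes from HOXA2 to HOXA13, homeobox factors that pattern the body axis, at 36.6 CpGs per kb. Its value was 1.35, 0.886 and 1.05 in MUTYH KO and 0.904, 1.24 and 1.11 in DKO, against 1.67, 1.5 and 1.67 in WT and 1.74, 1.43 and 1.61 in OGG1 KO. All deficient columns lay below all proficient columns, by -0.514 ± 0.107 (SE, limma adjusted p = 0.077). The difference was -0.517 between MUTYH KO and WT and -0.511 between DKO and OGG1 KO. Input in this window ran from 1.04 to 1.23 in proficient and from 0.963 to 1.04 in deficient columns. The log2 ratio of OG to input differed by -0.14 ± 0.0387 (SE), with an unadjusted limma p of 0.000557 and an adjusted p of 1.00. In its 33 CpG island bins the ratio was 1.12 ± 0.100 (SD, n = 6) without and 1.26 ± 0.0781 with MUTYH, and in its other 67 bins 0.986 ± 0.0453 and 1.07 ± 0.0313.

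A subtelomeric window of chromosome 2, from 241800001 to 241900000, holds GAL3ST2, NEU4, PDCD1, RTP5 and FAM240C, and PDCD1 encodes the immune checkpoint receptor PD-1. It had 1.21 ± 0.246 (SD, n = 6) without and 1.69 ± 0.0737 with MUTYH (limma adjusted p = 0.453), and the groups did not overlap. Input in this window ran from 1.02 to 1.30 in proficient and from 0.884 to 1.05 in deficient columns. Its log2 ratio of OG to input differed by -0.082 ± 0.0416 (SE). Windows at 89900001 and 90200001 on chromosome 10, which hold no protein-coding gene, were lower by -0.406 and -0.450 (limma adjusted p = 0.735 and 0.0531). In the second, input was 1.79 and 1.78 in OGG1 KO replicates 1 and 2, against 0.874 in replicate 3 and from 0.907 to 1.00 in the deficient columns, and the log2 ratio of OG to input differed by only -0.07 ± 0.042 (SE). The highest values of the proficient group in that window, 1.19 and 1.58, belonged to those columns with more input.

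**Figure D1:**
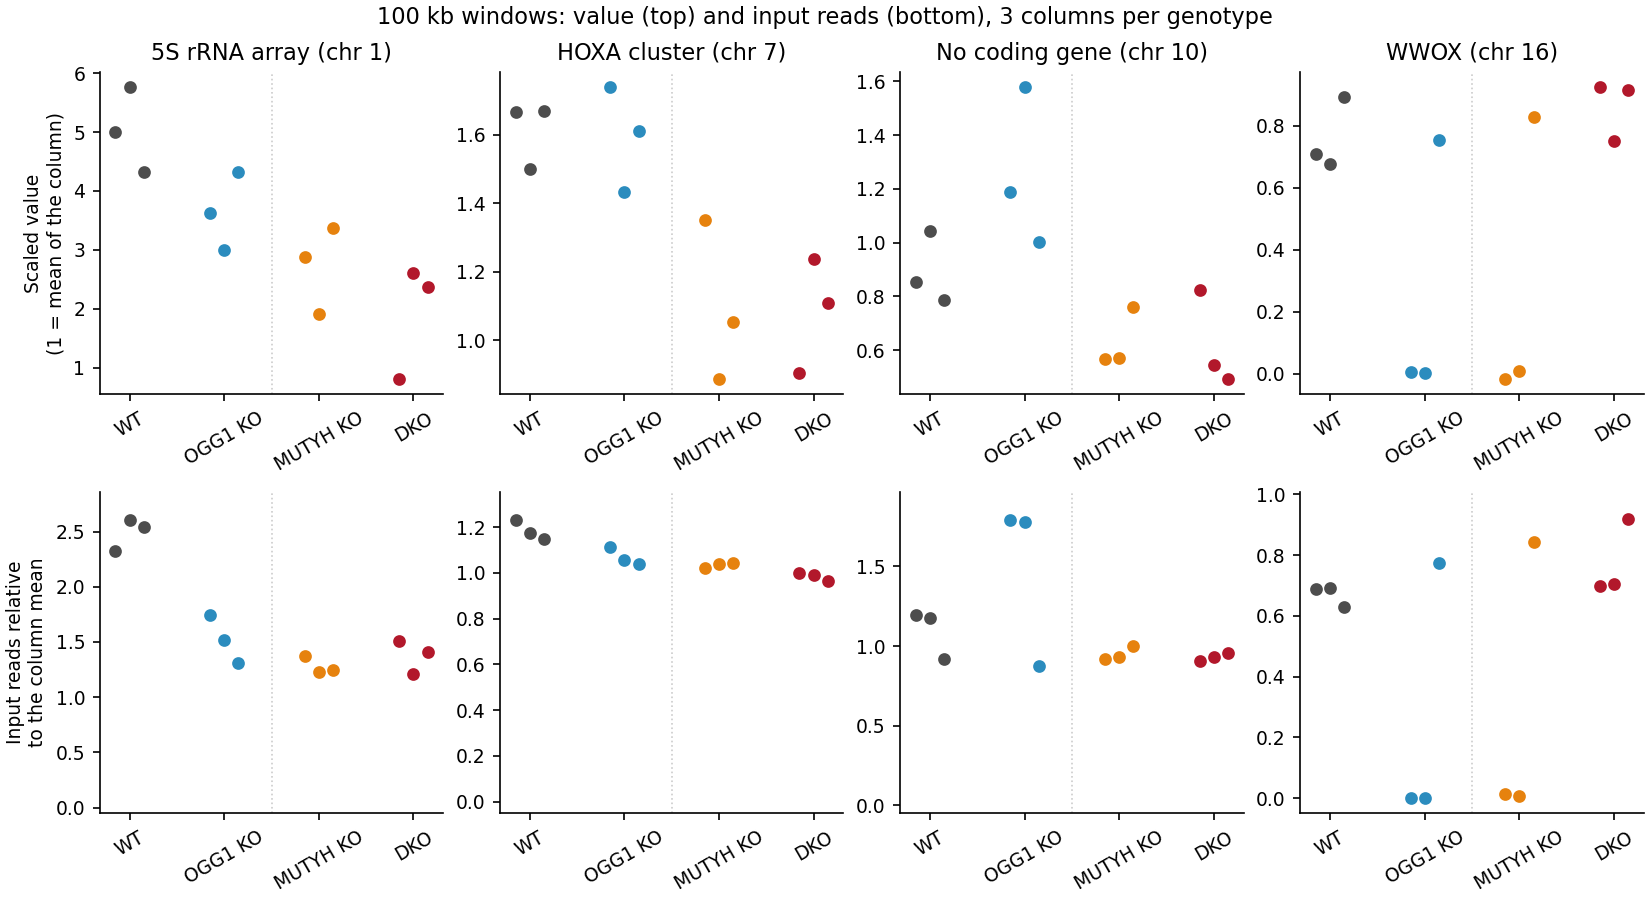
Scaled value (top, 1 is the mean of the column) and input reads relative to the column mean (bottom) of 4 windows of 100 kb, each point 1 column, 3 columns per genotype. In the 5S rRNA array the mean value and the mean input were highest in WT, in the HOXA cluster the values without MUTYH lay below all others, in the chromosome 10 window the input of 2 OGG1 KO columns was 1.79 and 1.78, and in WWOX 4 columns had almost no input.

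In the higher direction no window passed adjustment, and the smallest limma adjusted p was 0.123. It belonged to a window of PTPRK, a receptor tyrosine phosphatase gene, on chromosome 6 from 128400001 to 128500000. Its value was 0.972, 0.883 and 0.753 in MUTYH KO and 0.979, 1.1 and 1.13 in DKO, against 0.560, 0.527 and 0.523 in WT and 0.697, 0.709 and 0.612 in OGG1 KO. The groups did not overlap, and the difference was 0.366 ± 0.0794 (SE). Input was 1.35 in DKO replicates 1 and 2 and between 0.937 and 1.04 in the other columns, while the log2 ratio of OG to input differed by 0.14 ± 0.0421 (limma adjusted p = 1.00). Windows at 134800001 and 146500001 on the same chromosome arm, the second with RAB32 and ADGB, had the same gain of input in DKO replicates 1 and 2, up to 1.53 and 1.31. Windows without a coding gene at 109100001 on chromosome 10 and 29100001 on chromosome 11 had even input, from 0.815 to 0.944 over both. Their values were 0.908 ± 0.0997 (SD, n = 6) and 0.942 ± 0.113 without MUTYH against 0.603 ± 0.0919 and 0.634 ± 0.116 with MUTYH, both with a limma adjusted p of 0.937, and the groups overlapped in the second.

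The effect of losing MUTYH was then compared between the OGG1 backgrounds, which share no column. Across 28128 windows the difference between MUTYH KO and WT and that between DKO and OGG1 KO correlated with r = -0.0382 and rho = -0.0433, and 48.5 % of windows had the same sign. The points share the genome and its base composition, and r was -0.0251 after columns were centred within strata of GC content. Of 140 windows with p of at most 0.01 between MUTYH KO and WT, 65 had the same sign between DKO and OGG1 KO, and 3 also had p of at most 0.01 there. Among all 28128 windows, 507 had p of at most 0.01 between DKO and OGG1 KO (limma, unadjusted). At the scale of windows, the pattern of differences seen in 1 background was thus not seen again in the other. How much agreement the spread between columns of a genotype would allow was not tested. With adjustment, 0 windows passed between MUTYH KO and WT and 3 were lower between DKO and OGG1 KO. All 3 had uneven input. In those at 89900001 and 90200001 on chromosome 10, OGG1 KO replicates 1 and 2 had input from 1.78 to 1.96, against 0.907 to 1.06 in DKO. In the window at 33300001 on chromosome 16, input ran from 0.527 to 1.48 over all columns. Centred within strata of GC content, 5 were higher and 1 lower between MUTYH KO and WT (smallest limma adjusted p = 0.000467), and 3 were higher and 4 lower between DKO and OGG1 KO (smallest limma adjusted p = 0.00676).

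The interaction term itself was called in 2 windows of chromosome 16. From 78600001 to 78700000, within WWOX, an oxidoreductase gene at a common fragile site, the value was -0.0182, 0.00991 and 0.828 in MUTYH KO and 0.926, 0.751 and 0.916 in DKO. It was 0.708, 0.677 and 0.893 in WT and 0.00609, 0.000775 and 0.756 in OGG1 KO. Input was 0.0119 and 0.00649 in MUTYH KO replicates 1 and 2 and 0.000558 and 0.00058 in OGG1 KO replicates 1 and 2, and from 0.628 to 0.918 in every other column. The sequence was almost absent from the input of these 4 columns. The other window, from 33300001 to 33400000 with TP53TG3E and TP53TG3B, had input from 0.527 to 1.48 over the columns.

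The values were also averaged over classes of sequence. CpG islands are stretches rich in unmethylated CpG that cover many promoters. Here a bin was counted as one with at least 50 % GC and an observed to expected CpG ratio of at least 0.6, which gave 27250 bins with 62.3 % GC and 75.2 CpGs per kb on average. Their scaled value was 1.29, 0.904 and 1.19 in MUTYH KO and 0.626, 1.25 and 1.06 in DKO. It was 1.55, 1.32 and 1.59 in WT and 1.32, 1.32 and 1.48 in OGG1 KO. All deficient columns lay below all proficient columns, though MUTYH KO replicate 1, at 1.29, and the lowest proficient columns, at 1.32, were close. The difference was -0.376 (exact permutation p = 0.005, the smallest that 400 arrangements allow, and 0.025 adjusted over 10 feature classes). It was -0.357 between MUTYH KO and WT and -0.395 between DKO and OGG1 KO. DKO replicate 1 was the lowest column, and without it the difference was -0.288 (exact permutation p = 0.005). With columns 1 and 2 of a genotype averaged, since they share copy number steps, the difference was -0.385, and the exact permutation p of 0.0556 was the smallest that 36 arrangements allow.

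The reads behind these values showed where the difference lay. OG reads in CpG island bins, relative to all bins, were 0.854, 0.724 and 0.813 in MUTYH KO and 0.702, 0.792 and 0.775 in DKO. They were 1.14, 1.09 and 1.1 in WT and 0.923, 0.894 and 0.888 in OGG1 KO, and the groups did not overlap (difference -0.229, exact permutation p = 0.005). Input reads in the same bins were 0.709, 0.649 and 0.668 in MUTYH KO, 0.727, 0.654 and 0.678 in DKO, 0.932, 0.978 and 0.920 in WT and 0.785, 0.725 and 0.692 in OGG1 KO. Input was thus also lower without MUTYH, by -0.158 (exact permutation p = 0.015), and it was highest in WT. The ratio of OG to input reads was 1.21, 1.11 and 1.22 in MUTYH KO and 0.965, 1.21 and 1.14 in DKO, against 1.22, 1.11 and 1.20 in WT and 1.18, 1.23 and 1.28 in OGG1 KO. It differed by -0.0618 (exact permutation p = 0.24), by 0.000598 between MUTYH KO and WT and by -0.124 between DKO and OGG1 KO. On the ratio no difference was therefore detected, and MUTYH KO and WT had nearly the same mean. Which part of the difference in the deposited value comes from the input was not tested.

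**Figure D2:**
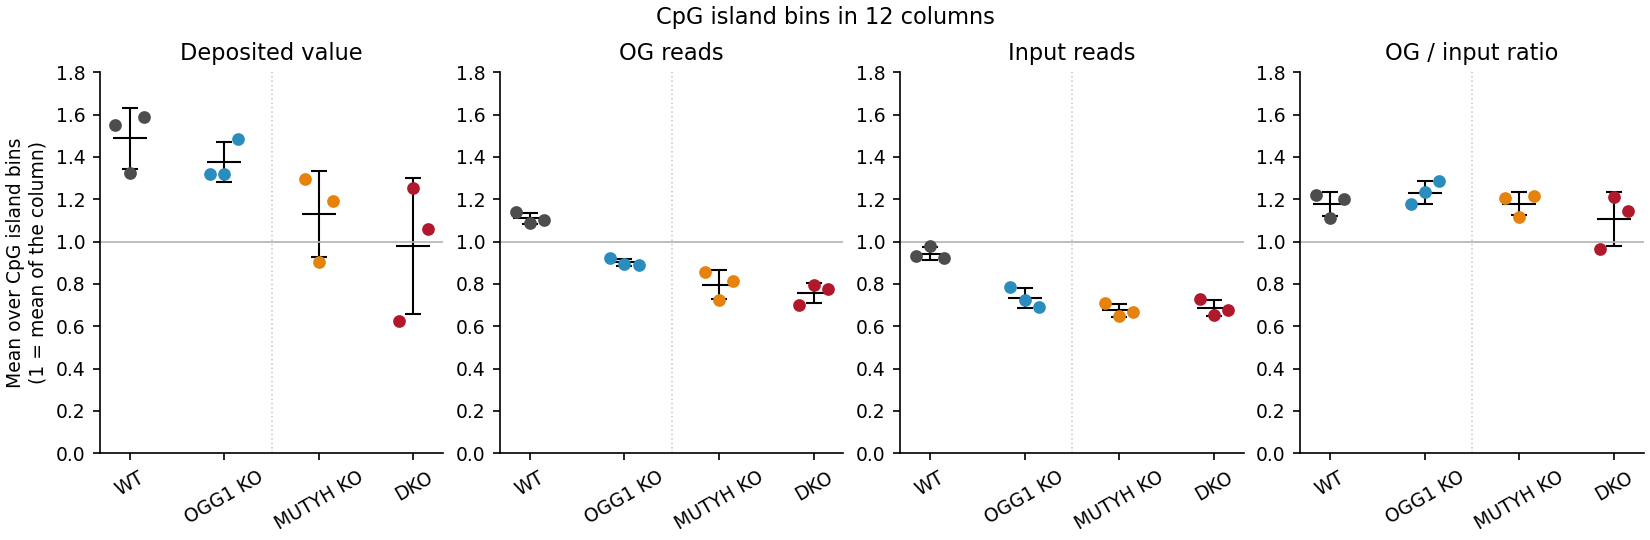
Mean over 27250 CpG island bins of the scaled value, of OG reads, of input reads and of the ratio of OG to input reads (1 is the mean of the column), each point 1 column and bars the mean ± SD of 3 columns per genotype. The 6 columns without MUTYH (right of the dotted line) lay below the other 6 for the value and for OG reads, and their ratio of OG to input overlapped.

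On the deposited value, the difference grew with the density of CpGs up to 80 to 100 per kb. In bins with fewer than 40 CpGs per kb it lay between -0.0505 and 0.0186. It was -0.250 in bins with 40 to 60 CpGs per kb (exact permutation p = 0.1), -0.406 with 60 to 80, -0.522 with 80 to 100 and -0.527 with 100 or more (each exact permutation p = 0.005, adjusted 0.0133 over 8 classes). The groups did not overlap at 60 to 80 CpGs per kb and overlapped in the denser classes. Between DKO and OGG1 KO the difference did not grow further there, with -0.472, -0.471 and -0.374 from 60 to 80 CpGs per kb upward. The ratio of OG to input was not split by the CpG density of bins. In the last class the value was 0.627, 0.390 and 0.657 in MUTYH KO and 0.141, 0.595 and 0.490 in DKO. It was 1.38, 0.844 and 1.49 in WT and 0.791, 0.647 and 0.909 in OGG1 KO. In these 4354 bins WT replicates 1 and 3 stood above all other columns, and MUTYH KO replicate 3, at 0.657, lay above the lowest OGG1 KO column, at 0.647. By GC content, the difference was -0.447 at 65 to 70 % GC and -0.544 at 70 % or more, each with an adjusted p of 0.05 over 10 classes (exact permutation). At matched GC of 50 to 60 %, CpG island bins minus other bins had -0.423, -0.323 and -0.153 in MUTYH KO and -0.488, -0.384 and -0.292 in DKO, against -0.145, -0.161 and -0.135 in WT and -0.247, -0.384 and -0.161 in OGG1 KO. That difference of -0.138 had an exact permutation p of 0.04 before adjustment over the 3 comparisons made at matched GC.

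**Figure D3:**
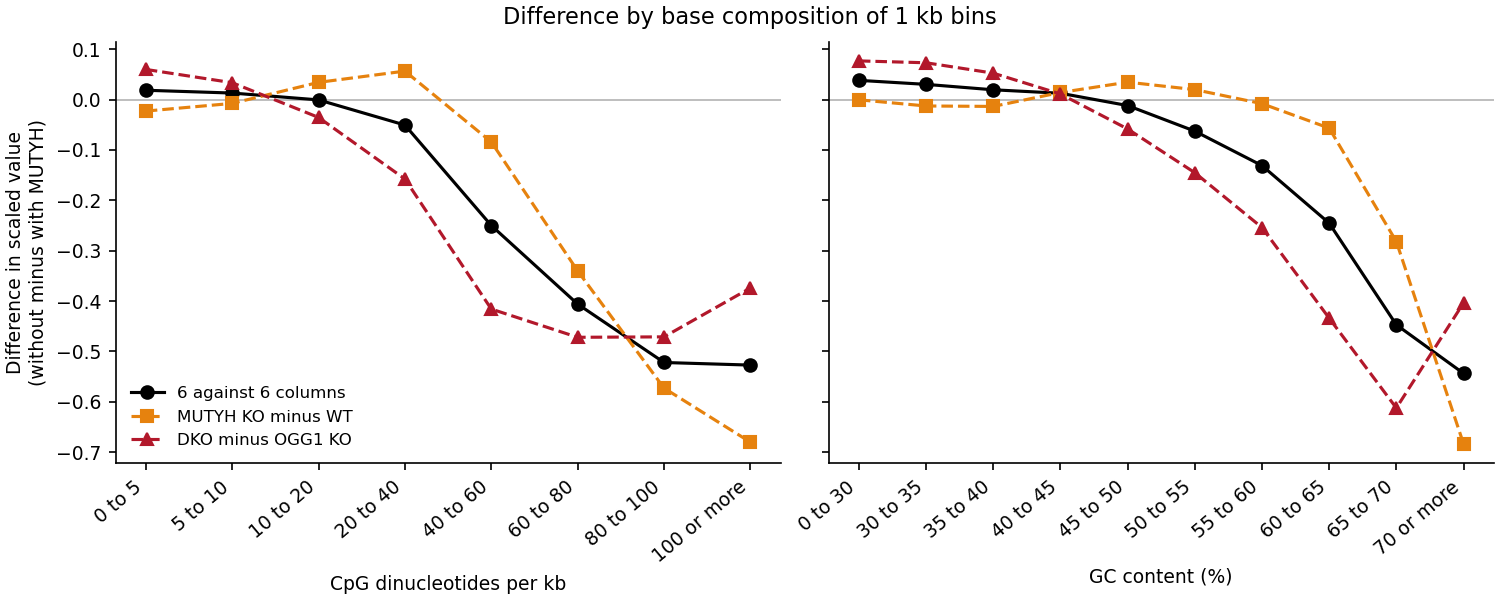
Difference in scaled value, without minus with MUTYH, of 1 kb bins by CpG dinucleotides per kb (left) and by GC content in percent (right), for 6 against 6 columns (black), MUTYH KO minus WT (orange) and DKO minus OGG1 KO (red). The difference is near 0 up to 20 CpGs per kb and is -0.527 at 100 or more; MUTYH KO minus WT departs from 0 at a higher density than DKO minus OGG1 KO.

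The dependence on GC content as a whole did not separate the groups. The slope of the scaled value per 10 % of GC was 0.652, 0.335 and 0.353 in MUTYH KO and 0.277, 0.623 and 0.412 in DKO, against 0.479, 0.402 and 0.465 in WT and 0.487, 0.659 and 0.542 in OGG1 KO. MUTYH KO replicate 1, DKO replicate 2 and OGG1 KO replicate 2 were the steepest, and DKO replicate 1 the shallowest. The difference of -0.0638 had an exact permutation p of 0.425. Without MUTYH KO replicate 1 it was -0.115 (p = 0.075) and without DKO replicate 1 -0.0238 (p = 0.74, both exact permutation), so its size rests on single columns.

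Promoters, taken as the 1000 bp before a gene's start and the first 100 bp after it, differed less. Over 20773 promoter bins the value was 1.38, 1.14 and 1.25 in MUTYH KO and 0.991, 1.38 and 1.25 in DKO, against 1.42, 1.30 and 1.45 in WT and 1.36, 1.43 and 1.43 in OGG1 KO. The groups overlapped, and the difference of -0.168 (exact permutation p = 0.03) did not pass adjustment (0.075). It did not stay below 0.05 in 8 of the 12 cases in which 1 column was left out. Promoter bins in CpG islands had -0.359 (exact permutation p = 0.01, adjusted 0.0333) and promoter bins outside CpG islands -0.0722 (exact permutation p = 0.195). CpG island bins outside promoters had -0.382 (exact permutation p = 0.005, adjusted 0.025), so the class difference was also present outside the promoter bins. Only starts of protein-coding genes were used, and bins just past the first 100 bp count as outside. The distance of these bins to a start was not measured.

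The remaining classes stayed within the spread of the columns. Coding exon bins had a difference of -0.117 (exact permutation p = 0.065). Intron bins had -0.00389 (exact permutation p = 0.63) and intergenic bins 0.0085 (exact permutation p = 0.255). Bins with a motif for a G-quadruplex, a 4-stranded fold of G runs that is prone to oxidation, had 1.33, 1.12 and 1.19 in MUTYH KO and 1.07, 1.35 and 1.20 in DKO. They had 1.27, 1.25 and 1.30 in WT and 1.26, 1.34 and 1.31 in OGG1 KO, a difference of -0.0759 (exact permutation p = 0.17) that was -0.0528 outside CpG islands. Their OG reads were lower without MUTYH by -0.052 (exact permutation p = 0.005) and their input by -0.0336 (exact permutation p = 0.01). The ratio of OG to input in these bins differed by -0.0163 (exact permutation p = 0.23). No chromosome passed adjustment over 23 (exact permutation, unadjusted p of at least 0.065). Chromosome 6 had the second largest difference, 0.0532, and its input was higher in DKO replicates 1 and 2.

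Windows and genes were also ordered by CpG density, given here as a description. In the top 1 % of windows by CpG density (281 windows), 94.0 % had a lower mean without MUTYH, with a median difference of -0.218, and 33 of them (11.7 %) had p of at most 0.01 in the lower and 0 in the higher direction, against the 0.43 % and 0.441 % of all windows. The median was -0.0279 between MUTYH KO and WT and -0.409 between DKO and OGG1 KO, so it was larger with OGG1 absent, a difference that was not tested. In the less dense classes, from 11.9 to 29.4 CpGs per kb, the median between MUTYH KO and WT was above 0, from 0.00965 to 0.0195, while that between DKO and OGG1 KO ran from -0.062 to -0.218. On the log2 ratio of OG to input the median was -0.02. In the lower range, windows with at most 8.09 CpGs per kb had a median of 0.0244. Gene bodies with at least 30 CpGs per kb (1540 genes) had a median difference of -0.247, and those with 5 to 10 CpGs per kb (4988 genes) 0.0187.

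Among single gene bodies, the 5 with the smallest p in the lower direction were MMP21, CNPPD1, KRBOX1, GALP and FCRLB, none past adjustment. The named genes of both directions were picked by their p, so groups that do not overlap carry no test of their own. The share of all genes without overlap was not counted. MMP21 (ENSG00000154485.5, chromosome 10 from 125753580 to 125775821), a metalloproteinase gene needed for left-right body asymmetry, had 0.875, 0.833 and 0.903 in MUTYH KO and 0.749, 1.09 and 0.983 in DKO. It had 1.28, 1.63 and 1.5 in WT and 1.51, 1.46 and 1.76 in OGG1 KO. The groups did not overlap and the difference was -0.619 ± 0.0937 (SE, limma adjusted p = 0.125). Input was even, from 0.974 to 1.1 with and from 0.947 to 1.06 without MUTYH, and the log2 ratio of OG to input differed by -0.22 ± 0.0346 (adjusted p = 0.179).

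CNPPD1 (ENSG00000115649.16, chromosome 2 from 219171897 to 219178106), a cyclin-like gene of 6 bins, had 0.519 ± 0.596 (SD, n = 6) without and 2.35 ± 0.625 with MUTYH, a difference of -1.84 ± 0.295 (SE, limma adjusted p = 0.15). KRBOX1, which encodes a KRAB domain protein, differed by -1.17 ± 0.20 over 7 bins, GALP, a neuropeptide gene, by -0.888 ± 0.157 over 10 bins and FCRLB, an Fc receptor-like gene, by -0.976 ± 0.174 over 6 bins. In each of these genes, picked by p, all deficient columns lay below all proficient columns. The limma adjusted p was 0.197 for KRBOX1 and 0.215 for GALP and FCRLB. Input over KRBOX1 was higher on average without MUTYH, at 1.11 (0.942 to 1.26) against 0.936 (0.858 to 1.04). Its log2 ratio of OG to input differed by -0.52 ± 0.094 (SE), so part of the ratio difference lies in the input.

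In the higher direction, CRYBA1 (ENSG00000108255.8, chromosome 17 from 29246859 to 29254494), a lens crystallin gene, had 2.03, 2.03 and 1.97 in MUTYH KO and 2.44, 2.98 and 2.38 in DKO. It had 0.606, 0.588 and 0.416 in WT and 1.55, 0.442 and 1.69 in OGG1 KO. The lowest deficient column, at 1.97, lay above the highest proficient column, and the difference was 1.42 ± 0.204 (SE, limma adjusted p = 0.111). Its input was higher with MUTYH, from 1.23 to 1.48 against 1.02 to 1.18, and the log2 ratio of OG to input rose by 0.53 ± 0.0651 with a limma adjusted p of 0.0254. HSPB2-C11orf52 (ENSG00000254445.1, chromosome 11 from 111912736 to 111926871), a readthrough of a small heat shock protein gene and its neighbour, was likewise called on the ratio (0.35 ± 0.0415, limma adjusted p = 0.0254). Here too input was higher with MUTYH, from 1.11 to 1.32 against 0.961 to 1.11, so part of the ratio difference lies in the input. Its value was 2.12, 2.06 and 1.55 in MUTYH KO and 1.97, 1.51 and 1.44 in DKO, against 1.13, 0.980 and 0.851 in WT and 0.862, 0.804 and 0.567 in OGG1 KO. C11orf52, which shares its bins, differed by 0.839 ± 0.177 and is no separate locus.

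FGG, the gamma chain of fibrinogen, had 0.954 ± 0.234 (SD, n = 6) without and 0.278 ± 0.145 with MUTYH (limma adjusted p = 0.15). DUXA, a homeobox gene of the early embryo, had 1.36 ± 0.20 and 0.731 ± 0.237 (limma adjusted p = 0.323). In both genes, also picked by p, all deficient columns lay above all proficient columns. FGG held 4.78 and DUXA 18.3 CpGs per kb.

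**Figure D4:**
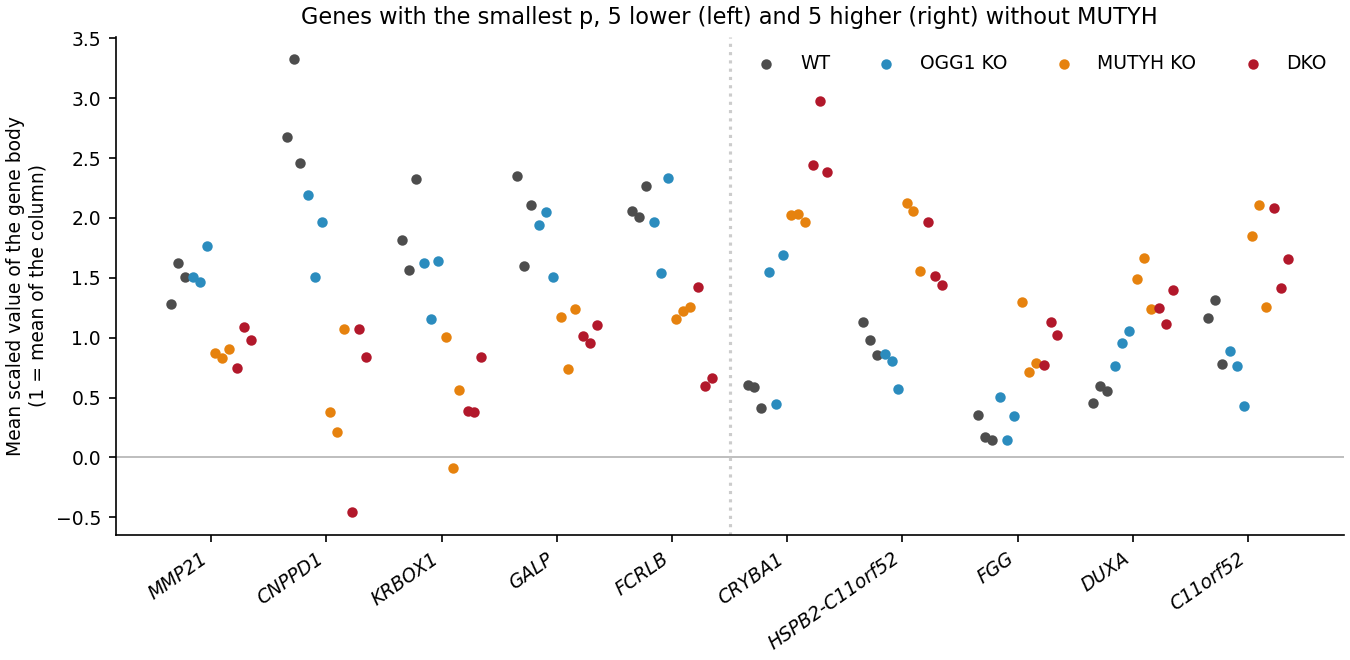
Mean scaled value of the gene body (1 is the mean of the column) for the 5 genes with the smallest p in each direction, each point 1 column coloured by genotype. MMP21 to FCRLB were lower and CRYBA1 to C11orf52 higher without MUTYH, and the groups overlap in C11orf52; the genes were picked by their p and none passed limma's adjustment on this scale.

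No gene of OG repair passed adjustment. Of 15 genes listed for base excision repair of OG, 13 could be tested, since APEX1 and FEN1 cover fewer than 5 bins, and 0 were called. There were 10 with a lower and 3 with a higher mean without MUTYH, and their median difference was -0.0629, against -0.0265 over all genes, of which 9872 had a lower and 7422 a higher mean. PARP1, which binds strand breaks made during repair, had 1.17, 1.30 and 0.710 in MUTYH KO and 1.30, 1.24 and 1.55 in DKO. It had 2.03, 1.65 and 1.72 in WT and 1.48, 1.69 and 1.12 in OGG1 KO, with an unadjusted limma p of 0.035 (adjusted 0.866). NEIL1, a glycosylase for oxidized pyrimidines, differed by -0.643 ± 0.39 (SE) and its input was 1.90 to 2.68 times the mean in every column. NTHL1, another such glycosylase, differed by -0.467 ± 0.294 and NUDT1, which clears oxidized dGTP, by -0.491 ± 0.357. The OGG1 gene itself differed by -0.136 ± 0.214 and MUTYH by 0.0128 ± 0.331.

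All 10 partners of MUTYH at replication and mismatch repair were tested, with 0 called, a median difference of 0.013 and 6 higher and 4 lower. RPA1, the large subunit of the single-strand binding complex, had the smallest p, with -0.243 ± 0.128 (SE, limma adjusted p = 0.926), followed by HUS1 of the checkpoint clamp with 0.208 ± 0.188. Of 14 genes of the response to oxidative stress, 13 were tested, 0 were called and the median was -0.0125. SOD2, the mitochondrial superoxide dismutase, had 0.159 ± 0.0888 and input up to 1.39 in the deficient columns, and NQO1, a quinone reductase, had -0.346 ± 0.209. These values are OG signal over the gene, not its expression.

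**Figure D5:**
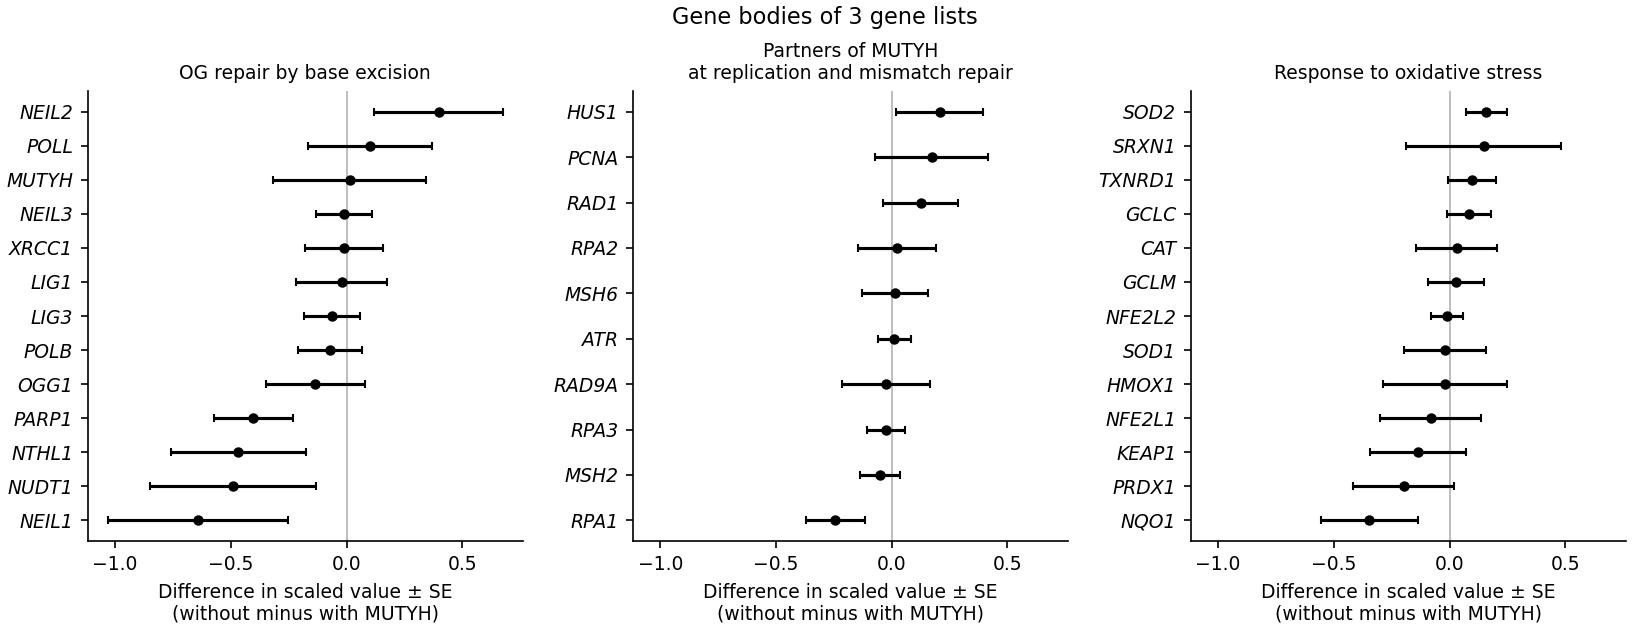
Difference in scaled value of the gene body, without minus with MUTYH, for the tested genes of 3 lists, with points the limma estimate and bars ± 1 SE. None passed adjustment, and PARP1 had the smallest p (unadjusted 0.035).

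At 1 kb the bins with the smallest p were read as a description, since the smallest limma adjusted p was 0.994. In the lower direction, a bin within MEGF11 on chromosome 15 from 66077001 to 66078000 had 4.28, -1.66 and 0.773 in MUTYH KO and 0.732, -1.90 and 0.939 in DKO, against 6.12, 4.06 and 7.29 in WT and 5.69, 4.86 and 8.45 in OGG1 KO. MUTYH KO replicate 1, at 4.28, lay above WT replicate 2. A bin 88171 bp from ANKRD55, from 56321001 on chromosome 5, differed by -3.72 ± 0.74 (SE). In the higher direction, a bin within SLC26A8, from 36018001 on chromosome 6, differed by 3.48 ± 0.671 and a bin within DCDC1, from 30905001 on chromosome 11, by 3.75 ± 0.783. These 4 bins hold a G-quadruplex motif, searched on both strands as 4 runs of at least 3 G separated by 1 to 7 bases. The motifs are shown to let them be compared between the directions, with the G runs in capitals and each read 5′ to 3′ on its G-rich strand.
MEGF11 bin, lower, chr15:66077860-66077881, plus strand: GGGcaaGGGtGGGaatgatGGG
ANKRD55 bin, lower, chr5:56321408-56321434, plus strand: GGGGGagtGGGGtgtgagtGGGaGGGG
SLC26A8 bin, higher, chr6:36018500-36018523, plus strand: GGGctgaGGGGtGGGGaaataGGG
DCDC1 bin, higher, chr11:30905859-30905883, plus strand: GGGaaGGGaggaGGGtgatctGGGG

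Such motifs occurred in bins of both directions, and the other named bins held none. Of all 2835235 bins of the genome, 274609 held one. The other bins of the lower set lay near CFAP144 and within IGSF9B and TYW1B, and those of the higher set within IFT74 and CPQ and 54145 bp from NEURL3. Among all tested bins, CpG island bins had p of at most 0.01 in the lower direction in 1.13 % and in the higher direction in 0.103 %, against 0.497 % and 0.438 % of all bins.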

How the data were processed

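The authors fragmented DNA enzymatically, biotinylated OG, pulled it down and sequenced it beside input. Per the labels and methods, reads were trimmed with cutadapt 2.8, mapped to GRCh38 with Bowtie2 2.3.5.1 and counted in 1 kb bins with bedtools. The deposited score per bin is OG reads minus input reads scaled by SES, so it is no raw count and can be below 0. The authors used edgeR 3.42.4 on reads over genomic features, where differences from input below 0 were set to 0 and low counts filtered. That test was not used here.

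Columns were divided by their mean. OG and input reads were solved from the scores in all bins but 2. Windows needed 50 bins and genes (GENCODE 44) 5. limma 3.58.1 (R 4.3.3) fitted OGG1 and MUTYH status with a variance trend and Benjamini-Hochberg adjustment. Class means were tested two-sided by exact permutation within OGG1 status. Scripts were tested on simulated data. Named items are the 5 windows, genes and bins with the smallest p in each direction, and all list members. Members and lists were chosen with earlier results of these data known. Alternatives covered scale, scaling, GC strata, input, filters, blocks and left-out columns. No value column was left unassigned (0), and columns are replicates of a genotype without a known clone. Depth is given beside the first values, and counting error was not modelled separately. 1 locus and 1 sequence are not reported here.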

Additional observations from a re-analysis of the deposited data

Results flagged for a closer look

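The difference between the OGG1 backgrounds was called by limma's interaction term in 2 windows of chromosome 16. In the window of WWOX the difference between DKO and OGG1 KO exceeded that between MUTYH KO and WT by 1.1 (adjusted p = 0.0458), with input near 0 in 4 columns. In the window of TP53TG3E and TP53TG3B the interaction was -1.38 (adjusted p = 0.0458), with uneven input. Of 88 groups of 6 columns checked for a column far from the rest, 2 were found, both in the 1 kb bin within IFT74, where chance gives about 1 in 20. Among columns without MUTYH, MUTYH KO replicate 2 had 0.0665 and the others 1.92 to 2.55 (gap over range 0.746). Among columns with MUTYH, OGG1 KO replicate 2 had 0.542 and the others -1.98 to -1.14 (gap over range 0.668).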

How the results depend on the processing

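The number of called windows, 1 on the main scale, was 0 on the log2 scale, with the ratio of OG to input (also when centred within GC strata), in windows with even input, in windows of 10 kb and 1 Mb, and 3 with median scaling, 2 with an interaction term and 2 without a minimum of bins. With single columns, or a column number, left out it ran from 0 to 4, the highest without MUTYH KO replicate 1. Called 1 kb bins were 0, but 33 on the log2 scale and 9 without the variance trend, all lower. On the log2 scale values below 0 were set to 0 and every bin took the variance of the trend. Those 33 calls therefore do not rest on the spread of the single bins. Gene bodies had 0 called, and 2 on the ratio. The interaction had 2 and, centred on GC, 1, which was another window (chromosome 19 from 500001, -1.71, input 2.02 and 1.93 in MUTYH KO replicates 1 and 2), so both windows of chromosome 16 lost their call. For CpG island bins the difference was -0.0791 on the log2 ratio (exact permutation p = 0.245) and -0.385 with columns 1 and 2 averaged, and -0.198 within GC strata (exact permutation p = 0.035). For promoter bins it was -0.0355 on the log2 ratio, -0.0761 within GC strata and -0.173 with columns averaged. With columns left out the range was -0.445 to -0.288 for CpG islands, -0.210 to -0.114 for promoters, and -0.115 to -0.0238 for the GC slope. The causes were not tested. Even input, the GC-centred ratio, the GC-centred interaction, the chromosome alternatives and averaged columns were chosen after seeing the data.

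With the column number as a replicate block, 0 windows, 0 bins and 1 gene body (HSPB2-C11orf52, higher) were called, and the paired exact permutation p was 0.0312 for CpG islands and promoters, the smallest that 64 arrangements allow. Columns of the same number correlated by 0.0317 to 0.340 in their deviations (6 pairs, median 0.107) and those of different number by -0.294 to 0.115 (12 pairs, median -0.0629). Every column but replicate 3 of DKO and of OGG1 KO correlated best with its own number, a hint from the data and not the design. Since not every same-number pair was over 0.1, the number was not taken as a pairing. No named window, gene or bin changed its direction. Of 25 alternatives, the 5S window lost its call in 11, while the window at 90200001 on chromosome 10 gained one in 8 and the HOXA window in 2.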
